A study of Bos taurus with 12 samples.

Results

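NANOG was followed in single cattle (Bos taurus) blastocysts that lacked exon 1 of OCT4 and in wild-type blastocysts. Its row of the count table was found by its Ensembl identifier, ENSBTAG00000020916, and is 1 of the 27607 genes listed. The table names genes by identifier only, so the name NANOG rests on that identifier. All embryos were produced in vitro and their RNA was sequenced at day 7.5. The 5 edited embryos carry the label "lacking exon 1 OCT4", and by the series title they had been electroporated repeatedly with CRISPR-Cas systems, against DNA as well as RNA. The 7 others carry the label "wild type" and served as controls. Neither a sire nor a sex is named, and nothing says whether the controls were electroporated, so handling and genotype cannot be told apart. Each library came from part of the lysate of an embryo after amplification of its cDNA.

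NANOG is a homeodomain transcription factor. With OCT4 (the product of POU5F1) and SOX2 it belongs to the core network that keeps cells of the early embryo pluripotent, and OCT4 with SOX2 is known to bind the NANOG promoter in mouse and human pluripotent cells. In the blastocyst NANOG is known as a marker of the inner cell mass and then of the epiblast, and it is not a marker of the trophectoderm, the outer layer that forms the placenta. In the RefSeq gene table (assembly ARS-UCD2.0) the protein-coding neighbours of cattle NANOG are DPPA3, another gene of early embryonic and germ cells, and SLC2A3, a glucose transporter. Each library here holds RNA of inner and outer cells together, so fewer NANOG-expressing cells and less NANOG RNA per cell cannot be told apart. No identifier was paired with a symbol, so POU5F1, the edited gene, and the markers of the inner cell mass, hypoblast, trophectoderm and cumulus cells were not analysed here, and expression provides no check of the genotype or tissue labels.

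Total reads assigned to genes ran from 168974 to 3202922 in edited and from 2762133 to 4781663 in wild-type libraries. Edited embryos 2, 5 and 4 lay below the wild-type range, with 168974, 778114 and 1478796 reads. Edited embryo 2 stood apart: 51.5% of the 11926 genes that passed the filter on low counts had 0 reads in it, against 0.285% to 8.26% in the other edited and 0.126% to 0.528% in the wild-type libraries. Results are therefore given with and without this embryo.

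Most edited blastocysts had little NANOG RNA, but not every one did. Edited embryo 4 had 0 NANOG reads, edited embryo 5 had 12, edited embryo 1 had 24, edited embryo 2 had 91 and edited embryo 3 had 343. As CPM (read counts scaled to library size with TMM factors) these were 0, 18.6, 7.58, 558.1 and 117.2. Edited embryos 1, 4 and 5 lay below every wild-type embryo, whereas edited embryos 2 and 3 lay inside the wild-type range. The 5 embryos averaged 140.3 ± 238.3 CPM (SD, n = 5) with a median of 18.6, and edited embryo 2 supplied 79.6% of that mean. Without it the mean was 35.8 ± 54.8 CPM (SD, n = 4).

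Every wild-type blastocyst had NANOG reads, at levels that differed widely. Wild-type embryos 5, 2 and 1 had 232, 163 and 235 reads, or 45.1, 55.9 and 70.1 CPM. Wild-type embryos 3, 7, 4 and 6 had 1195, 1627, 2085 and 4044 reads, or 306.9, 402.6, 578.7 and 1120 CPM. The 3 lower embryos thus lay below 100 CPM and the 4 higher ones above 300 CPM, with no library between. The mean was 368.4 ± 388.4 CPM (SD, n = 7) and the median 306.9, and the highest embryo exceeded the lowest 24.9-fold.

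**Figure D1:**
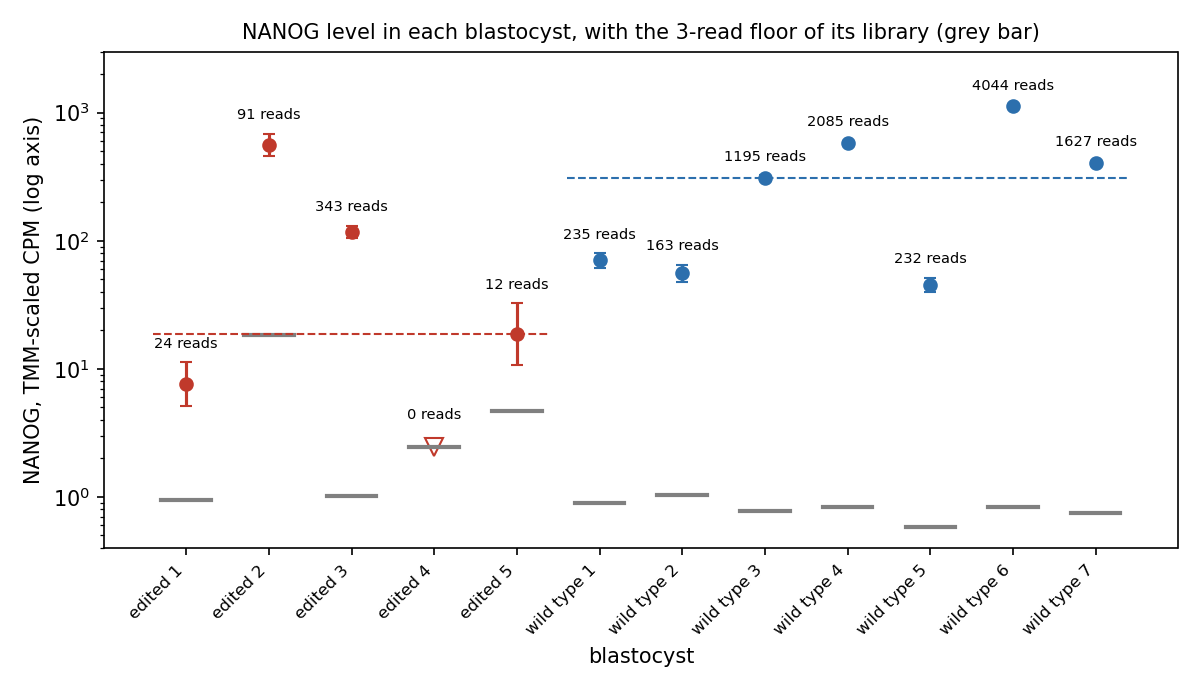
NANOG in each of the 12 blastocysts, as TMM-scaled CPM on a log axis, with the read number above each point and the 95% Wilson interval as error bar. Red marks edited and blue wild-type embryos, dashed lines are the group medians of 18.6 and 306.9 CPM, and grey bars show what 3 reads are worth in each library. The open triangle is edited embryo 4, drawn at its floor because it had 0 reads. Edited embryos 2 and 3 sit inside the wild-type range and edited embryos 1, 4 and 5 below it.

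The depth of each library set how low a NANOG level could be seen. Across edited embryos 1 to 5, in order, a level of 3 reads equalled 0.948, 18.4, 1.02, 2.45 and 4.65 CPM. For wild-type embryos 1 to 7 the same floor was 0.895, 1.03, 0.770, 0.833, 0.583, 0.831 and 0.742 CPM. Edited embryo 2 thus had the highest floor of the 12 libraries. The lowest wild-type level, 45.1 CPM, lay above the floor of every library. At that level edited embryo 4 would have given 55.3 reads, edited embryo 5 29.1 and edited embryo 2 7.35.

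The missing reads of edited embryo 4 thus bound its level well below the wild-type range. Its count of 0 lies below the floor of 3 reads, 2.45 CPM, and the lowest wild-type embryo, at 45.1 CPM, was 18.4-fold higher than that floor. Against the upper 95% Wilson limit of the same count, 3.13 CPM, it was 14.4-fold higher. Edited embryo 5 (18.6 CPM, 95% Wilson interval 10.6 to 32.5) and edited embryo 1 (7.58 CPM, 5.10 to 11.3) also had intervals that ended below 39.6 CPM, the lower end of the interval of wild-type embryo 5. In edited embryo 2 the 91 reads gave an interval of 454.6 to 685.0 CPM despite the shallow library. These intervals and floors cover counting error only, because reads amplified from little RNA are not independent molecules. In 1 random draw that thinned all libraries to 168974 reads, the depth of edited embryo 2, NANOG kept 0, 91, 21, 0 and 4 reads in edited embryos 1 to 5 and 6 to 193 reads in wild type. Edited embryo 1 would keep 1.27 of its 24 reads on average at that depth, so its level lies below the 3-read floor of so shallow a library.

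NANOG reads reached the floor of 3 in 4 of 5 edited and 7 of 7 wild-type libraries, a difference that did not pass the test (two-sided Fisher's exact test, p = 0.417, adjusted 0.521). The same 4 and 7 libraries had at least 10 reads. Presence or absence of the transcript therefore separated 1 edited embryo from the rest, and the other comparisons rest on its level.

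Over all 12 embryos NANOG was not called different between the groups. Its log2 fold change, edited over wild type, was -1.64 (SE 1.10, quasi-likelihood test of edgeR, adjusted p = 0.496 by Benjamini-Hochberg over 11926 genes). On the linear scale this is 3.11-fold lower, with a 95% interval from 15.6-fold lower to 1.61-fold higher, so neither a large loss nor a small gain lies outside it. In that test 3 of 11926 genes were called, or 0.0252%, at an adjusted p under 0.05. NANOG was lower in the edited embryo in 27 of the 35 pairs of an edited and a wild-type embryo. The mean log2 CPM (prior count 2) was 4.56 ± 3.69 in edited (SD, n = 5) and 7.67 ± 1.83 in wild-type embryos (SD, n = 7). They differed by -3.11 (exact permutation over all 792 splits, two-sided, p = 0.0758, adjusted 0.189 over the 5 exact tests of NANOG). A mean of log values weights the near-empty embryos more than the fitted log2 fold change does.

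Without edited embryo 2, the NANOG log2 fold change was -3.26 (SE 1.22), again short of the adjusted threshold (edgeR adjusted p = 0.136 over 12308 genes). This is 9.56-fold lower, with a 95% interval from 60.4-fold to 1.51-fold lower. Among the 12308 genes 652 were called in this fit, or 5.3%, and NANOG was not among them. The difference of mean log2 CPM was -4.26 (3.42 ± 3.08, SD, n = 4, against 7.67 ± 1.83, SD, n = 7; exact permutation over all 330 splits, two-sided, p = 0.0152, adjusted 0.0758 over the 5 exact tests). On the linear scale the difference of mean CPM did not pass, at -332.6 CPM without edited embryo 2 (exact permutation, p = 0.106) and -228.1 CPM over all 12 embryos (exact permutation, p = 0.297), both outside that family of tests. Edited embryos were lower in 25 of 28 pairs, and the 3 exceptions were edited embryo 3 against the 3 lower wild-type embryos. The groups therefore overlapped in NANOG, while in 3.42% of genes all edited embryos but embryo 2 lay below all wild-type embryos, and over all 12 embryos 2.67% of genes had edited wholly below wild type. Without edited embryo 2, 0.211% of tested genes had a lower fitted log2 fold change than NANOG, and the median gene stood at -0.03. Over all 12 embryos 2.26% did, with the median gene at -0.05. These ranks take no account of error: without edited embryo 2 the SE of NANOG was 1.22, against a median of 0.322 over tested genes.

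**Figure D2:**
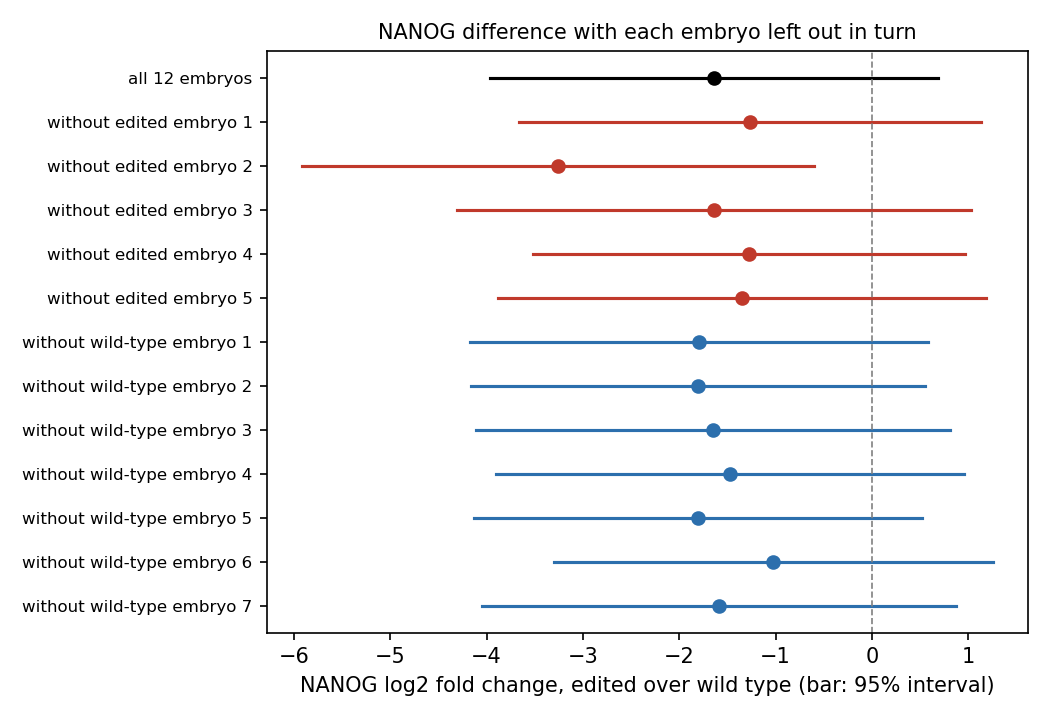
NANOG log2 fold change, edited over wild type, from the edgeR fit to all 12 embryos (black) and with 1 edited (red) or 1 wild-type embryo (blue) left out. Bars are 95% intervals, and the dashed line marks no difference. The value was below 0 in all 13 fits, from -3.26 without edited embryo 2 to -1.02 without wild-type embryo 6, and the interval excluded 0 only without edited embryo 2.

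Single embryos moved the estimate. Leaving out edited embryo 2 took it from -1.64 to -3.26, and leaving out wild-type embryo 6, the embryo with most NANOG and 43.4% of the wild-type mean, took it to -1.02. With any other embryo left out it lay between -1.81 and -1.26. Once edited embryo 2 was out, edited embryo 3 was the next to matter. Without both, the value was -5.64 (SE 1.41) and passed the threshold (edgeR adjusted p = 0.0456). That fit kept edited embryos 1, 4 and 5, those below every wild-type embryo in NANOG. Its embryos were thus in effect selected by the level under test, and no conclusion is drawn from the pass. With edited embryos 2, 4 and 5 all left out, so that only edited libraries of wild-type depth remained, the value was -2.56 (SE 1.59, edgeR adjusted p = 0.446). Those remaining were edited embryo 1, at 7.58 CPM, and edited embryo 3, at 117.2 CPM, 2 libraries of nearly equal depth on either side of the lowest wild-type level. Log2 library size as a covariate gave -3.33 (SE 1.34, edgeR adjusted p = 0.264) over all 12 embryos and -2.62 (SE 1.5, adjusted p = 0.448) without edited embryo 2.

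NANOG had a wide SE and differed strongly between embryos of the same group. Its edgeR dispersion, a measure of the variance between embryos of 1 group beyond counting error, was 1.40, against 0.128 for the trend at its mean CPM. This is a coefficient of variation of 118.2% between embryos and the place 51 from the top of 11926 tested genes. Without edited embryo 2 the dispersion was 1.40 again, at place 79 of 12308 genes, against a trend of 0.0696. Of 575 other genes with at least its mean CPM, 0 had a higher dispersion, and the highest of them had 0.596. The median SE of a log2 fold change over all tested genes was 0.412, against 1.10 for NANOG. CPM are not per transcript length, and NANOG was compared with these genes only for its spread.

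**Figure D3:**
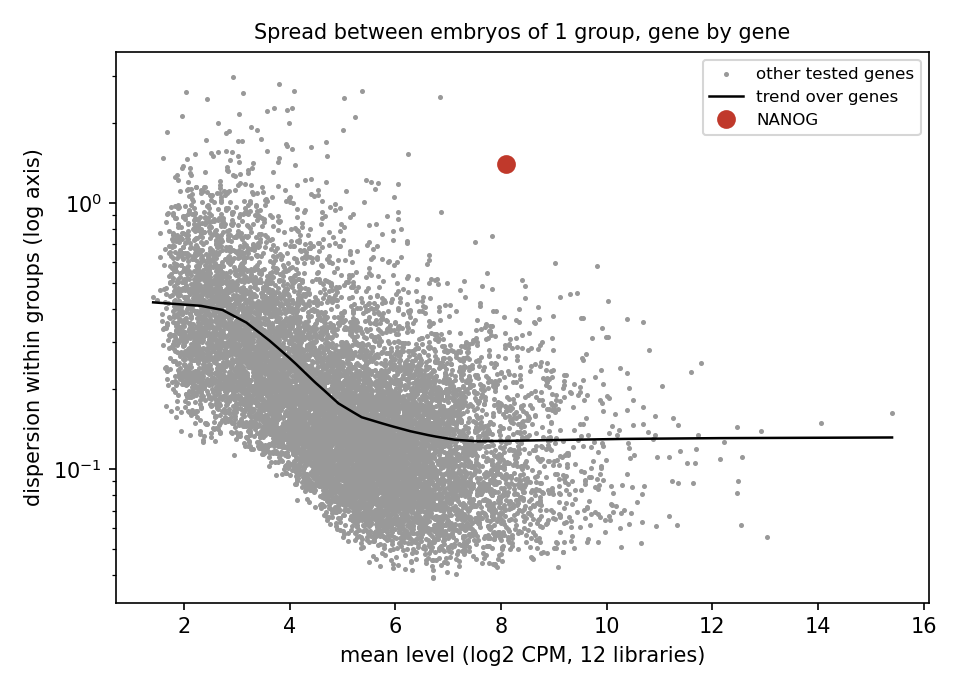
Dispersion between embryos of 1 group (log axis) against mean level (log2 CPM over 12 libraries) for the 11926 tested genes, with the trend as a black line and NANOG in red. NANOG, at 1.40, lies above all 575 other genes of its mean CPM or more, of which the highest has 0.596.

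This spread was present in the wild-type embryos alone. The SD of NANOG log2 CPM was 1.83 over the 7 wild-type embryos, against a median of 0.361 over all tested genes, and 99.5% of tested genes had a lower wild-type SD. Of 344 other genes with at least its wild-type mean CPM, 0 had as large an SD, and the largest was 0.941. Wild-type depth ran only from 2762133 to 4781663 reads, so these 7 libraries cannot settle whether the level follows depth. In them Pearson's r between log2 total reads and NANOG log2 CPM was -0.019 (n = 7, exact permutation p = 0.972). Spearman's rho was -0.036 (exact permutation p = 0.963). Without the 2 libraries farthest from the median depth r was 0.470 over 5 libraries, so the sign rests on those libraries. Amplification noise differs from gene to gene, and its part in the spread of NANOG was not tested.

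Edited embryos spread further still, with an SD of log2 CPM of 3.69 (n = 5) against 1.83 (n = 7). The difference of 1.86 was not rare among divisions of the embryos (two-sided exact permutation test, p = 0.263, adjusted 0.438 over the 5 exact tests). Without edited embryo 2 the difference was 1.25 (3.08 against 1.83, exact permutation p = 0.621, adjusted 0.621). Divisions that mix the groups also hold their difference of mean level, so the test is not one of spread alone. The median gene also had a larger SD in edited embryos, 1.60 against 0.361 in wild type, with edited embryo 2 and its many zero counts included.

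In order of level, wild-type embryo 6 stood highest, at 1120 CPM, followed by wild-type embryo 4 and edited embryo 2, at 578.7 and 558.1 CPM. With these TMM factors the counting intervals of the latter pair overlapped (554.4 to 604.1 and 454.6 to 685.0 CPM). The order of this pair depended on the scaling. RLE size factors gave 587.1 CPM in wild-type embryo 4 and 618.2 in edited embryo 2, and upper quartile scaling gave 563.6 and 811.8. Library size alone gave 619.6 and 538.5 CPM. Wild-type embryos 7 and 3 came next and then edited embryo 3, at 402.6, 306.9 and 117.2 CPM, each with an interval apart from its neighbours. Wild-type embryos 1, 2 and 5 lay close together, at 70.1, 55.9 and 45.1 CPM, and the intervals of wild-type embryos 1 and 2 (61.7 to 79.6 and 47.9 to 65.1 CPM) and of wild-type embryos 2 and 5 (39.6 to 51.2 CPM in the latter) overlapped. Edited embryos 5, 1 and 4 closed the order, and the intervals of edited embryos 5 and 1 overlapped between 10.6 and 11.3 CPM.

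Among 9442 other genes with at least 10 CPM in wild type, the pair with the pattern most like that of NANOG over the 12 libraries was ENSBTAG00000007872 and ENSBTAG00000013761, with Pearson's r of log2 CPM of 0.961 and 0.940. These are descriptions, since the genes were picked for their likeness and the libraries share depth and genotype differences. In all, 8 of the 9442 genes had an r of at least 0.9. Within the 7 wild-type embryos alone the r was 0.901 and 0.837, and there 216 of the 9442 genes reached 0.9. Over the 11 libraries without edited embryo 2 the r was 0.959 and 0.944, at places 3 and 10, and 50 genes reached 0.9 there.

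Both genes ranked the 5 edited embryos as NANOG did, which their choice by likeness over the same libraries favours, but over a narrower range. ENSBTAG00000007872 had 57.8, 190.1, 115.1, 37.5 and 91.5 CPM in edited embryos 1 to 5, and 86.4 to 253.4 CPM in wild type with a median of 118.4. Its highest wild-type embryo exceeded the lowest 2.93-fold, against 24.9-fold for NANOG, and a log2 step in NANOG went with 0.246 log2 in this gene. ENSBTAG00000013761 had 119.1, 337.3, 217.6, 62.8 and 210.8 CPM in edited embryos 1 to 5, and 147.6 to 520.3 CPM in wild type with a median of 321.1. For both, as for NANOG, the edited embryos ran from embryo 4 as the lowest through 1, 5 and 3 to embryo 2. Neither was called between the groups, with log2 fold changes of -0.70 (SE 0.384, edgeR adjusted p = 0.394) and -0.88 (SE 0.373, edgeR adjusted p = 0.277) over all 12 embryos, and -1.0 (SE 0.344, adjusted p = 0.0950) and -1.16 (SE 0.353, adjusted p = 0.0682) without edited embryo 2. Because the pick used the same libraries and NANOG itself differed between the groups there, these tests are not independent of the pick. No conclusion is drawn from them.

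**Figure D4:**
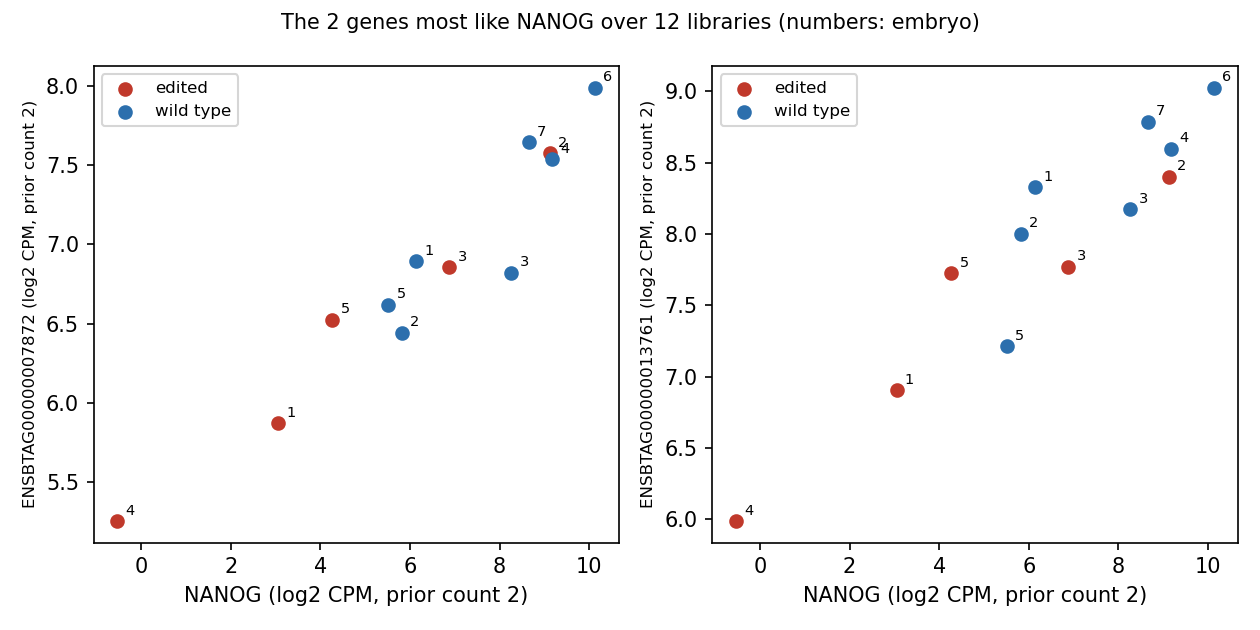
Log2 CPM (prior count 2) of ENSBTAG00000007872 (left) and ENSBTAG00000013761 (right) against log2 CPM of NANOG in the 12 libraries, edited in red and wild type in blue, numbered by embryo. The r is 0.961 and 0.940. Edited embryo 2 lies among the wild-type embryos with high values for NANOG and ENSBTAG00000007872, but near the wild-type middle for ENSBTAG00000013761. Edited embryo 4 is lowest in both panels.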

How the data were processed

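RNA of 12 single blastocysts was measured, 5 edited and 7 wild type by the genotype label, and embryos were numbered in accession order. The authors deposited unnormalised read counts per gene. Per the submitters' processing notes, the tools were featureCounts 2.0.1, SAMtools 1.17 and HISAT2 2.2.1, and the build was ARS-UCD1.2, also called bosTau9. The annotation release, the strand setting and whether molecular identifiers were collapsed were not given in the sources used here, so reads shared with overlapping or near-identical genes are uncertain. All 12 columns were matched by name. Every pair of libraries differed by more than sampling noise (chi-square per degree of freedom at least 7.6).

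Tests ran in R 4.3.3 with edgeR 4.0.16 (TMM, filterByExpr, robust dispersions, glmQLFit robust, glmQLFTest), two-sided, on the whole table, with genotype as the sole term. The threshold was a Benjamini-Hochberg adjusted p of 0.05. The SE is the absolute log2 fold change over the square root of F, and the 95% interval follows from it. TMM factors scaled the CPM, with a prior count of 2 on the log2 scale. Exact permutation tests covered all splits of the embryos. P-values for the group differences set them against the variation between these embryos only, and edgeR estimates that variation with help from the other genes tested. Simulated counts served to check the fit, but they were drawn at the dispersion trend (0.128 at the mean CPM of NANOG). They therefore do not check the fit at the dispersion of NANOG itself, 1.40. Alternatives used limma 3.58.1 and DESeq2 1.42.0. Python 3.11.15 with scipy 1.17.1 and matplotlib 3.10.9 served for exact tests and figures.

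The RefSeq table matched 0 of 27607 identifiers, so the lists by symbol and POU5F1 were not run, and no table with promoter or protein sequences was used here. NANOG, the lists and the tests were chosen with earlier results of these data known. The rule for named genes was NANOG and the 2 identifiers of highest Pearson correlation with it at 10 CPM or more in wild type. The comparison of its spread with genes of at least its mean CPM was chosen after seeing the data.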

Additional observations from a re-analysis of the deposited data

Results flagged for a closer look

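The NANOG level of edited embryo 2, 558.1 CPM, stood apart from the other 4 edited embryos, which had 0 to 117.2 CPM. The distance to edited embryo 3 made up 0.790 of the whole spread of the group, against a critical value of 0.71 for 5 samples. On the log2 scale the same distance made up 0.232 and did not stand apart. Of 10 groups of values examined in this way 1 was marked, and chance marks about 1 group in 20. The value rests on 91 reads in the shallowest library, in which 51.5% of tested genes had 0 reads, and the part of that in the value was not tested.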

How the results depend on the processing

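Over all 12 embryos the NANOG difference kept its sign and stayed short of the threshold in each of the 11 other settings, which gave log2 fold changes of -3.33 to -1.21 (adjusted p 0.264 to 0.623), and with each embryo left out (-3.26 to -1.02, adjusted p 0.136 to 0.708). Without edited embryo 2 it passed in 1 of 10 other settings, DESeq2, at -3.38 (adjusted p = 0.0482), and the others gave -3.46 to -2.62 (adjusted p 0.107 to 0.448). Leaving out a further embryo gave -5.64 to -2.66, past the threshold only without edited embryo 3, which leaves the edited embryos with least NANOG. The difference of mean log2 CPM ranged from -4.26 to -1.84 with each embryo left out (exact permutation p 0.0152 to 0.215), a check added after seeing the data, as was that on ranks (-3.26 in mean rank, exact permutation p = 0.149). Both prior count 0.5 and library size alone left it short of the threshold. With an embryo left out, mean NANOG CPM went from 368.4 to between 243.2 and 422.3 in wild type. In edited embryos it went from 140.3 to between 35.8 and 175.4. Other scalings gave 357.3 to 387.7 in wild type and 134.1 to 189.5 in edited embryos. All lay within 1 SD of the main mean. That bound is wider than the mean itself, and leaving out 1 value cannot cross it, so stable means were not shown. Neither gene most like NANOG was in the top 2 over 11 libraries or by Spearman's rho. Counts of called genes went from 3 over all 12 embryos to 749 with DESeq2, 421 with voom, 193 with bias-adjusted deviances and 0 with thinning, and from 652 without edited embryo 2 to 1559 with DESeq2 and 62 with library size as a covariate. Thinning tested 4232 genes in place of 11926. No paired analysis was possible because the labels give embryos no number or batch that groups share. Depth limits edited embryo 2 most, where 3 reads are 18.4 CPM.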
